A study of Homo sapiens with 6 samples.

Results

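The genes described are 8 ligands through which tumour cells restrain immune cells, followed in PANC-1, a cell line established from a human pancreatic ductal carcinoma. They were taken by name: CD274 (PD-L1), PDCD1LG2 (PD-L2), CD276 (B7-H3), VTCN1 (B7-H4), CD47, NECTIN2 (CD112), PVR (CD155) and LGALS9 (galectin-9). All 8 were found among the 42902 genes of the table, and 6 of them were counted often enough to be tested. The study knocked down RRM2, the small subunit of ribonucleotide reductase, to find the genes it regulates. The shNC group, 3 libraries, carried a non-targeting hairpin and is labelled wild type. The shRRM2 group, also 3 libraries, carried a hairpin against RRM2 and was otherwise the same line; no age or time point is labelled. The number of hairpins or clones is not stated in the labels, nor is it stated that the 3 libraries per group are separate cultures, and p-values here therefore capture library-to-library spread that could be technical.

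Checkpoint ligands sit on the surface of a cell and bind receptors on lymphocytes, natural killer cells or macrophages. PD-L1 and PD-L2 bind PD-1 and dampen T cells. CD47 binds SIRP-alpha on macrophages and acts as a signal against being engulfed. NECTIN2 and PVR are adhesion molecules that engage the inhibitory receptors TIGIT and, for NECTIN2, PVRIG, but also the activating receptor CD226. PD-L1 is best known as a gene induced by interferon through JAK kinases and IRF1.

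Library totals ran from 16606947 to 23300433 counts, so that a gene at 1 CPM (counts per 1e6 counts of the library) rests on 16.6 to 23.3 counts. RRM2 itself was counted 3567, 4435 and 3342 times with the control hairpin against 716, 808 and 716 times with the RRM2 hairpin, the direction the labels give. The keratins KRT7, KRT8 and KRT18 were abundant in all 6 libraries, with 11206 to 31909 counts each, while the ductal keratin KRT19 had 0 to 6 counts and the epithelial adhesion gene EPCAM 3 to 16. Of the 9 markers listed for this line 8 were tested, 7 rose and 1 fell (median log2 change 0.72), where 26.0% of all tested genes rose and 26.1% fell. Of the markers called, 1 entered the test through the group in which it was higher, so its call is no support. The summed level of the 9 markers was 3487 to 3659 CPM in shNC against 4806 to 4865 under shRRM2. In bulk RNA a change in the number of cells of 1 kind and a change in RNA per cell cannot be told apart. Differences were tested with edgeR's quasi-likelihood test over 15866 genes, and every adjusted p below is Benjamini-Hochberg adjusted over all of them, with a threshold of 0.05. Changes are given as log2 of the shRRM2 to shNC ratio with a standard error (SE). Levels are CPM after TMM scaling, given as the mean ± SD of 3 libraries.

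Of the 8 ligands, 4 rose in the knockdown (CD274, NECTIN2, CD276 and CD47) and 0 fell. PVR and LGALS9 did not pass the threshold, and PDCD1LG2 and VTCN1 were below the count filter. Among all tested genes 52.1% passed, 26.0% higher and 26.1% lower, so a passing gene is common in this comparison. The count of ligands lower was also 0 at an unadjusted p under 0.05 in edgeR, and 0 with DESeq2 and with limma-voom. The CPM of the groups did not overlap for CD276, CD47 and NECTIN2, nor for CD274, and among tested genes 29.2% had all shRRM2 libraries above all shNC libraries. CD274 passed the filter through the group in which it was higher, with 3 shRRM2 libraries and 1 shNC library above the cutoff of 0.560 CPM, so its call and its lack of overlap are no support, and without it 3 of 5 tested ligands rose. The median log2 fold change of the 6 tested ligands was 0.20, and that of all tested genes −0.01.

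**Figure D1:**
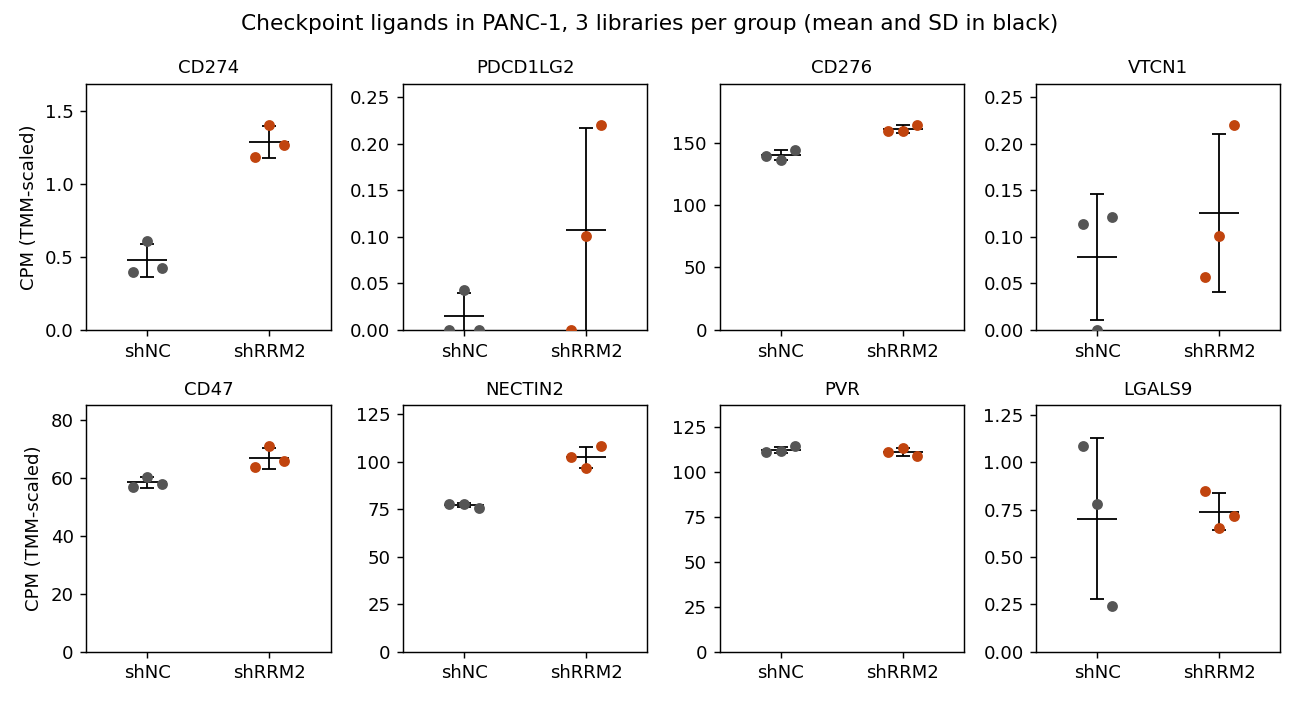
CPM of each of the 8 ligands in the 3 shNC (grey) and 3 shRRM2 (orange) libraries, each panel with its own axis from 0; black bars give the mean and SD. CD274, CD276, CD47 and NECTIN2 have no shRRM2 library at or below an shNC library, whereas the points of PVR lie between 109 and 114 CPM in both groups.

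CD274, which encodes PD-L1, had the largest fold change of the tested ligands and also 1 of the lowest levels. The gene lies on chromosome 9 from 5450542 to 5470554 (Gene ID 29126; this and all positions below are GRCh38.p14, from RefSeq). Its counts were 7, 14 and 7 in shNC against 21, 28 and 23 under shRRM2. As CPM these are 0.399, 0.606 and 0.425 against 1.19, 1.41 and 1.27. Every shRRM2 library was above every shNC library. The mean went from 0.477 ± 0.113 to 1.29 ± 0.112 CPM, or 1.39 in log2 (SE 0.403, adjusted p = 0.00405). The 95% interval of the fold ran from 1.49 to 4.64, and the gene rests on 100 counts in all. Of the tested genes, 458 (2.89%) had a log2 fold change at least as high. CD274 passed the filter through the group in which it was higher, so its rank, call and lack of overlap are no support. The long noncoding RNA INCR1 overlaps both CD274 and PDCD1LG2. INCR1 was counted 19, 28 and 30 times in shNC against 23, 40 and 15 under shRRM2. The library kit is a directional one, but no source used here states whether counting used strand, so reads of the overlap cannot be assigned with certainty.

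The 250 bases before the CD274 start are shown because they hold letters tied to interferon-responsive transcription, the best known control of this gene. Capitals mark matches to the interferon-stimulated response element core, GAAA and GAAA with any 2 bases between them, which here lie on the opposite strand and overlap each other. The window is chr9:5450292-5450541, plus strand, GRCh38.p14, from RefSeq.
CD274: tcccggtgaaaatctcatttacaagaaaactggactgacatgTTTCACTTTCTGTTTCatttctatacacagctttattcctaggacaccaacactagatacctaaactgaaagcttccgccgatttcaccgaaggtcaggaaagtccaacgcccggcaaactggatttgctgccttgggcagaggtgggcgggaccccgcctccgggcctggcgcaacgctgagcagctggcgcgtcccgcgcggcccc
The 2 matches begin 208 and 202 bases before the start. Searched on both strands, this core was present in 3.02% of 35116 windows of the same length in the RefSeq table, and in 1 of the 7 ligands with an entry there, CD274. No match was found to the NF-kB pattern, GGGA and TTCC with any 2 bases between them (1.40% of windows), or the AP-1 pattern TGANTCA (6.57%) in any of the 7. A match describes letters and is not evidence of binding.

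PDCD1LG2, the gene of PD-L2 (Gene ID 80380), starts 40.0 kb beyond the end of CD274, at 5510531 to 5571282. Its counts were 0, 1 and 0 in shNC against 0, 2 and 4 under shRRM2. A count of 0 allows up to 3 counts, or 0.167 to 0.181 CPM in the 3 libraries concerned. The groups overlap, and no difference was detectable at this depth. In the fit without a filter it did not pass (edgeR adjusted p = 0.360). The ratio of CD274 to PDCD1LG2 within libraries was therefore not computed.

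CD276, the gene of B7-H3, a B7 family member found on many carcinomas whose receptor is still debated, was the most abundant of the ligands in CPM. It lies on chromosome 15 from 73683944 to 73714514 (Gene ID 80381). Its levels were 139, 136 and 144 CPM in shNC and 159, 159 and 164 in shRRM2. All 3 shRRM2 libraries stood above all 3 shNC libraries, by a narrow but clear margin. The mean went from 139.8 ± 4.14 to 160.9 ± 3.01 CPM, or 0.20 in log2 (SE 0.0378, adjusted p = 2.77e-05). The change is 15.1% of the control level, and 30.3% of tested genes had a log2 fold change at least as high.

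VTCN1, the gene of B7-H4 (Gene ID 79679, chromosome 1, 117143587 to 117210927), another inhibitor of T cells, was near the limit of detection. It was counted 2, 0 and 2 times in shNC against 1, 2 and 4 under shRRM2. The groups overlap, and it did not pass in the fit without a filter (edgeR adjusted p = 0.728).

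CD47 (Gene ID 961, chromosome 3, 108043091 to 108091031) rose by a small amount. Its levels were 56.8, 60.3 and 57.8 CPM in shNC and 63.7, 70.7 and 65.6 in shRRM2, with no overlap. The mean went from 58.3 ± 1.81 to 66.7 ± 3.63 CPM, or 0.19 in log2 (SE 0.0540, adjusted p = 0.00314). The 95% interval of the fold was 1.06 to 1.23.

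NECTIN2 and PVR are neighbours on chromosome 19, and NECTIN2 rose while PVR did not pass the test. NECTIN2 (Gene ID 5819) lies from 44846297 to 44889223 and PVR (Gene ID 5817) from 44643910 to 44666162, 180 kb apart. NECTIN2 was at 78.0, 77.8 and 75.9 CPM in shNC and at 102.3, 96.9 and 108.1 in shRRM2. Every knockdown library was well above the controls, and the mean went from 77.2 ± 1.18 to 102.5 ± 5.60 CPM. This is 0.41 in log2 (SE 0.0471, adjusted p = 6.87e-09), and 18.4% of tested genes had one at least as high. PVR was at 111.1, 111.5 and 114.3 CPM in shNC and 111.1, 113.2 and 109.1 in shRRM2. The groups overlap, with means of 112.3 ± 1.75 and 111.1 ± 2.05 CPM. For PVR the log2 value was −0.01 (SE 0.0408, adjusted p = 0.795), with a 95% interval of −0.10 to 0.07, and with library size alone it was 0.02. The end of PVR overlaps the start of CEACAM19, which had 43 to 64 counts per library.

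The difference between the neighbours is seen in their ratio, which does not depend on how libraries are scaled. NECTIN2 was at 0.702, 0.698 and 0.664 of the PVR count in the shNC libraries and at 0.921, 0.856 and 0.991 in the shRRM2 libraries. All 3 knockdown ratios were above all 3 control ratios, with means of 0.923 ± 0.0674 and 0.688 ± 0.0211. The log2 ratio was higher by 0.42 (exact two-sided permutation test, p = 0.1, the smallest that 3 libraries against 3 can give).

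The 250 bases before each start are shown so that the neighbours can be set side by side. In NECTIN2 (chr19:44846047-44846296) and PVR (chr19:44643660-44643909), both on the plus strand, capitals mark GGGCGG, the GC box bound by SP1 family factors, and GGAATG, bound by TEAD factors, each searched on both strands.
NECTIN2: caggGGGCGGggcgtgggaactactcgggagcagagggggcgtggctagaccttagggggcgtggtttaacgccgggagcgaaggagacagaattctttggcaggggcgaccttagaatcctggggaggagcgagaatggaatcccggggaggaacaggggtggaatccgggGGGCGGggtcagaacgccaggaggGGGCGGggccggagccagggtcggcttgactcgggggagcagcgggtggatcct
PVR: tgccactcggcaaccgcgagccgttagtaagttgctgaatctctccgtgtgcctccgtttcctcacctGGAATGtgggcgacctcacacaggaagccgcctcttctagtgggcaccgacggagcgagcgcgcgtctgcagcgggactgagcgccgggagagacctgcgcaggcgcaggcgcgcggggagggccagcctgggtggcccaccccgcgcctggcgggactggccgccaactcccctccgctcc
NECTIN2 held 3 GC boxes and PVR held 0, while PVR held 1 GGAATG and NECTIN2 held 0. The GC box is present in 42.6% of all windows and GGAATG in 11.9%. CD276 and CD47 held 7 and 6 GC boxes. The CD276 window, here and in the searches above, is 1 of 2 listed for that gene. It lies before a start at 73684383, inside the gene, and not before the gene start at 73683944. Any part of these letters in the changes was not tested.

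**Figure D2:**
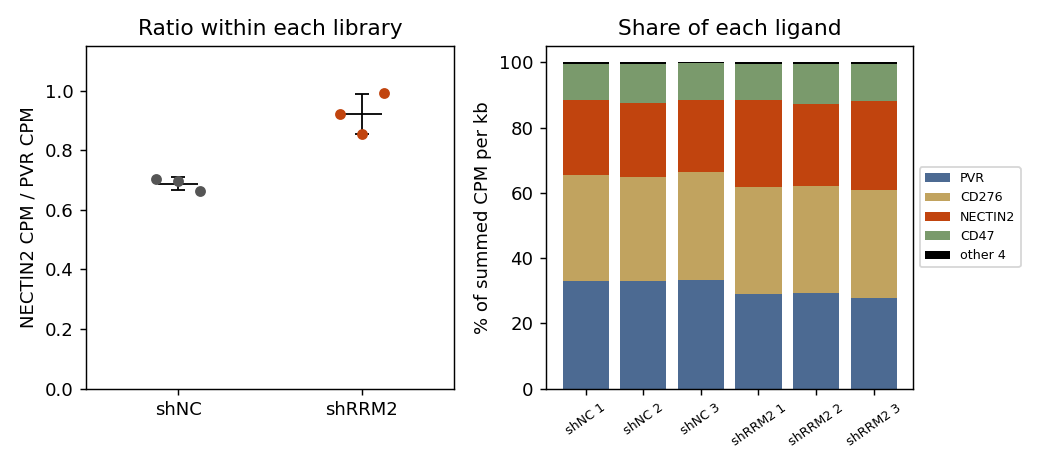
Left, NECTIN2 CPM divided by PVR CPM in each library, with mean and SD in black; right, the share of each ligand in the summed CPM per kilobase of the 8 ligands, 1 bar per library. The ratio is 0.664 to 0.702 in shNC and 0.856 to 0.991 in shRRM2, and in the bars the NECTIN2 segment is taller and the PVR segment shorter in every shRRM2 library than in any shNC library.

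LGALS9 encodes galectin-9, a secreted lectin that binds glycans on TIM-3 and other receptors of T cells. The gene (Gene ID 3965, chromosome 17, 27631188 to 27649560) was counted 19, 18 and 4 times in shNC against 15, 13 and 13 under shRRM2. shNC replicate 3 was the lowest of the 6 libraries in CPM and shNC replicate 1 the highest, so the groups overlap. Means were 0.702 ± 0.426 and 0.739 ± 0.0989 CPM (log2 fold change 0.05, SE 0.456, adjusted p = 0.939, 95% interval −0.88 to 0.98). Without shNC replicate 3 the value was −0.32 (adjusted p = 0.595).

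LGALS9 has the near-identical copies LGALS9B and LGALS9C elsewhere on chromosome 17, and these were higher in the knockdown. LGALS9B was counted 23, 40 and 15 times in shNC against 48, 79 and 46 under shRRM2. For LGALS9C the counts were 23, 37 and 24 against 82, 104 and 83. Neither overlapped between groups in CPM and both rose, LGALS9B by 1.19 in log2 (SE 0.276, adjusted p = 0.000478) and LGALS9C by 1.71 (SE 0.221, adjusted p = 5.73e-08). No source used here states how reads shared by the copies were treated, so the counts of any 1 copy are uncertain. With the 3 genes summed into 1 before the fit, a step chosen after these values were seen, counts were 65, 95 and 43 against 145, 196 and 142. This sum rose by 1.29 (SE 0.170, edgeR adjusted p = 8.30e-08), and its shRRM2 libraries were all above its shNC libraries. Which copy the reads came from was not tested.

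**Figure D3:**
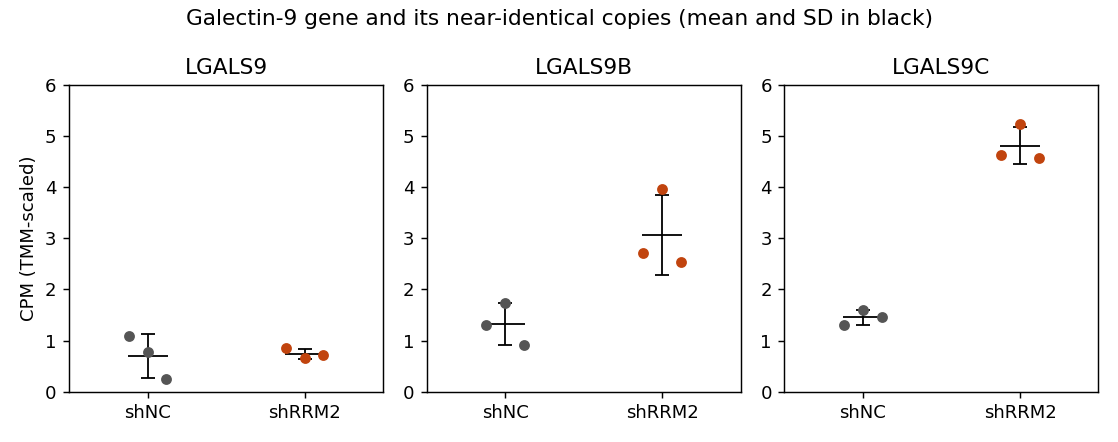
CPM of LGALS9 and its copies LGALS9B and LGALS9C in the 3 shNC (grey) and 3 shRRM2 (orange) libraries on a shared axis from 0, with mean and SD in black. The groups overlap for LGALS9 and do not overlap for LGALS9B or LGALS9C, whose mean went from 1.46 to 4.81 CPM.

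**Figure D4:**
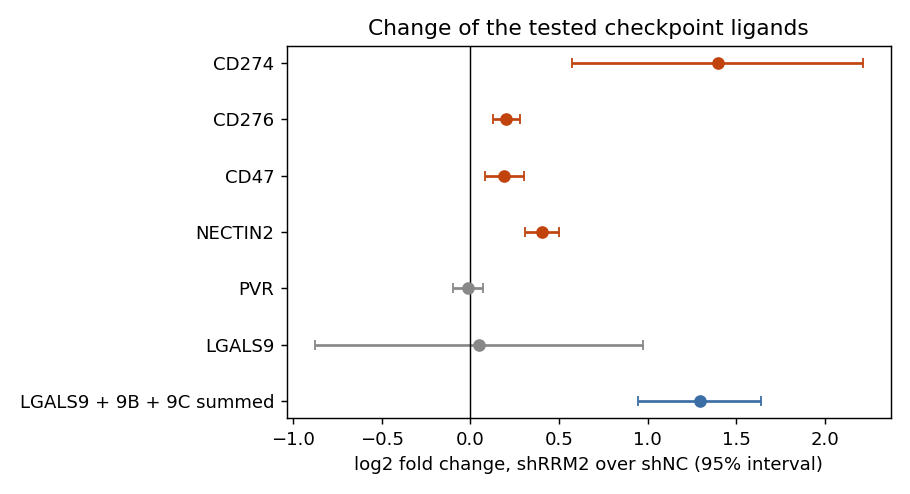
Log2 fold change of the 6 tested ligands with 95% intervals, orange where the adjusted p is under 0.05 and grey where not, and in blue the 3 galectin-9 genes summed. The interval of CD274 runs from 0.57 to 2.22, whereas those of CD276, CD47 and NECTIN2 lie between 0.08 and 0.50.

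Levels of different genes were compared per kilobase of merged exon (GENCODE 29), as CPM per kb. In shNC the order was PVR at 31.9 ± 0.498, CD276 at 31.4 ± 0.930, NECTIN2 at 21.8 ± 0.334 and CD47 at 11.0 ± 0.343 CPM per kb. PVR and CD276 overlapped there. LGALS9 followed at 0.226 ± 0.137 and CD274 at 0.129 ± 0.0307, which also overlapped, and then VTCN1 at 0.0259 and PDCD1LG2 at 0.00611 CPM per kb. In shRRM2 the order of the upper 4 was CD276 at 36.1 ± 0.677, PVR at 31.6 ± 0.583, NECTIN2 at 28.98 ± 1.58 and CD47 at 12.6 ± 0.687 CPM per kb, with no overlap between neighbours. CD274 at 0.349 ± 0.0303 stood above LGALS9 at 0.237 ± 0.0317 CPM per kb, without overlap. In both groups the place of LGALS9 relative to CD274 is uncertain, because reads shared with its copies cannot be assigned. LGALS9 alone was at 0.702 CPM in shNC and 0.739 in shRRM2, and summed with LGALS9B and LGALS9C at 3.48 and 8.63 CPM. VTCN1 at 0.0416 and PDCD1LG2 at 0.0453 CPM per kb overlapped each other.

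CD276, PVR, NECTIN2 and CD47 made up nearly all of the measured ligand RNA. The summed level of the 8 was 96.6 ± 0.809 CPM per kb in shNC and 110.0 ± 1.47 in shRRM2. The share of NECTIN2 in that sum was 22.6% ± 0.532 in shNC and 26.3% ± 1.19 in shRRM2 (SD, n = 3 each). The share of PVR was 33.0% ± 0.242 and 28.7% ± 0.848, and that of CD276 32.5% ± 0.715 and 32.8% ± 0.186. The share of CD274 was 0.134% ± 0.0323 in shNC and 0.318% ± 0.0279 in shRRM2, so the ligand with the largest fold remained a small part of the whole.

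The counts for related lists that follow are to be read against the 52.1% of all tested genes that passed, 26.0% higher and 26.1% lower. Of 15 other B7 and butyrophilin genes, 10 were tested, 1 rose, 3 fell and 6 did not pass, with a median of −0.10, a share of calls below that of all tested genes. VSIR, the gene of VISTA, an inhibitor of T cells, rose from 28.4 ± 2.51 to 47.9 ± 1.36 CPM (0.76, SE 0.0690). NCR3LG1, the gene of B7-H6, which activates natural killer cells through NKp30, was lower at −0.48 (SE 0.0468). ICOSLG, the costimulatory ligand of ICOS, was lower at −0.37 and BTN3A2, a butyrophilin, at −0.51. CD80, a ligand of CD28 and CTLA4, was counted 1, 5 and 0 times in shNC against 1, 2 and 1 under shRRM2.

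Of 9 genes listed as nectins and nectin-like, 6 were tested, 2 rose, 1 fell and 3 did not pass, a share near that of all tested genes. The list includes AFDN and CRTAM, which bind members of the family but do not belong to it. NECTIN4, a carcinoma surface antigen, rose from 3.03 ± 0.261 to 5.46 ± 0.962 CPM (0.86, adjusted p = 0.000256). NECTIN3, which pairs with NECTIN2 and PVR in cell adhesion, was lower at −0.31 (adjusted p = 0.00586) but did not pass without shRRM2 replicate 2 (−0.22, adjusted p = 0.0583). That left 0 members lower, and leaving out shNC replicate 3 gave 2. CADM4 rose by 0.39 (adjusted p = 0.0377), and did not pass with DESeq2 (adjusted p = 0.132) or without shNC replicate 1 or 2 or shRRM2 replicate 1 or 3 (adjusted p from 0.0917 to 0.209).

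Of 15 genes listed as other inhibitory ligands, 14 were tested, 8 rose and 3 fell, with a median of 0.36. The list also holds NT5E, ENTPD1 and IDO1, which are enzymes and not ligands, so the count is not of ligands alone. The genes named here are the 4 with the largest change, all of them higher. CEACAM1, a ligand of TIM-3 and of itself, had the largest change, from 1.88 ± 0.268 to 12.6 ± 1.70 CPM. TNFRSF14 (HVEM), the ligand of BTLA, rose from 3.41 ± 0.663 to 9.66 ± 0.626 CPM (adjusted p = 1.16e-09). FGL1, a ligand of LAG3, rose by 1.25 (SE 0.240). CD24, which like CD47 acts on macrophages, through Siglec-10, rose from 22.6 ± 1.81 to 51.4 ± 2.51 CPM (1.19, SE 0.0710). CEACAM1 and CD24 have relatives of similar sequence, so their counts carry some uncertainty.

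Of 16 ligands listed as activating lymphocytes, 11 were tested, 7 rose, 0 fell and 4 did not pass, with a median of 0.25. NCR3LG1 and ICOSLG, which also activate and were lower, are counted with the B7 family above. The count lower was 0 at an unadjusted p under 0.05 in edgeR, and 0 with DESeq2 and limma-voom. ULBP2, a ligand of the activating receptor NKG2D, rose from 4.49 ± 0.806 to 12.8 ± 1.46 CPM (1.52, SE 0.146). RAET1L and RAET1E, of the same NKG2D ligand family, rose by 1.59 and 0.54, and TNFSF9 (4-1BB ligand) by 0.33. ULBP2 and RAET1L are close in sequence to other members of their cluster, and reads may be split between them.

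**Figure D5:**
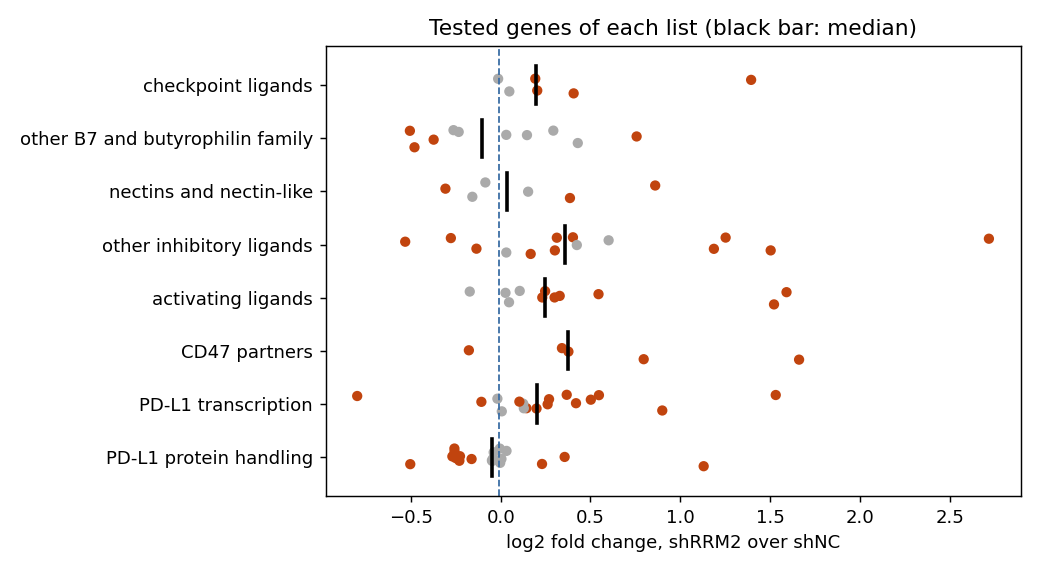
Log2 fold change of every tested gene in the 8 lists, 1 point per gene, orange where the adjusted p is under 0.05 and grey where not; the black bar is the median of the list and the dashed line the median of all tested genes (−0.01). The point farthest to the right is CEACAM1 at 2.72, and the checkpoint ligand farthest to the right is CD274 at 1.39.

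Among the tested genes tied to CD47, its ligand THBS1 rose, as did CALR, LRP1 and ITGAV. Its modifying enzyme QPCTL was lower by a small amount that did not pass in every setting. Of 9 genes, 5 were tested, 4 rose and 1 fell. THBS1, thrombospondin-1, a secreted ligand of CD47, went from 31.0 ± 1.27 to 98.0 ± 2.60 CPM. CALR, calreticulin, which at the cell surface acts as a signal for engulfment opposite to CD47, rose from 941 ± 17.3 to 1222 ± 44.7 CPM (0.38, SE 0.0287), and LRP1, a receptor of calreticulin, by 0.80 (SE 0.0347). ITGAV, an integrin subunit that associates with CD47, rose by 0.34, while ITGB3, its listed partner subunit, was below the count filter. QPCTL, the enzyme that modifies the CD47 N-terminus for SIRP-alpha binding, was lower at −0.18 (SE 0.0572, adjusted p = 0.00950), and did not pass without shRRM2 replicate 3 (−0.14, adjusted p = 0.0742). The receptor genes SIRPA and SIRPG had 0 counts in every library.

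The listed regulators of PD-L1 transcription, which include both activators and the inhibitors SOCS1, SOCS3 and PTPN2, were mostly higher by number of genes. Their summed level overlapped between groups, at 1586 to 1609 CPM in shNC and 1584 to 1608 in shRRM2. Of 17 genes, all tested, 11 rose and 2 fell, with a median of 0.20, and without shNC replicate 2 the number higher was 7. Of the genes called, 1 entered the test through the group in which it was higher, so its call is no support. Under the filter of 1 CPM in 3 libraries the number higher was 10. As the list holds both activators and inhibitors, these counts give no direction for PD-L1 transcription. The number lower was 1 with library size alone and without shNC replicate 3 or shRRM2 replicate 3. IRF1, the factor that binds the CD274 promoter in interferon responses, rose from 17.98 ± 1.28 to 24.0 ± 0.519 CPM (0.42, SE 0.0869). IRF9, STAT2 and STAT3 rose by 0.90, 0.55 and 0.50. JAK2 rose by 0.26 (adjusted p = 0.0237) and did not pass with DESeq2 (adjusted p = 0.0842) or without shNC replicate 2 or shRRM2 replicate 1 (adjusted p = 0.0884 and 0.135). MYC, described as an activator of CD274 and CD47, was lower at −0.80 (SE 0.0323), from 466 ± 8.39 to 268 ± 8.88 CPM. SOCS1, chosen after its values were seen, was counted 5, 10 and 4 times in shNC against 18, 23 and 13 under shRRM2, and entered the test through the group in which it was higher.

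Of 19 genes that handle the PD-L1 protein, all tested, 3 rose, 8 fell and 8 did not pass, with a median of −0.05. This share of calls is near the 52.1% of all tested genes and says nothing particular about the list. CMTM6, which keeps PD-L1 at the cell surface, rose from 63.1 ± 3.09 to 80.8 ± 2.62 CPM (0.36, SE 0.0509). B3GNT3, a glycosyltransferase that modifies PD-L1, rose from 15.8 ± 1.85 to 34.5 ± 0.560 CPM (1.13, SE 0.0848). STUB1, a ubiquitin ligase for PD-L1, was lower at −0.50 (SE 0.0478), and the deubiquitinase USP22 at −0.27 (SE 0.0332). Neither PD-L1 protein nor any other surface protein was measured.

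Markers of other cells were checked because several ligands and all of their receptors are also immune genes. Of 14 leukocyte markers, 6 had 0 counts in every library and 10 had 10 or fewer in all. PTPRC (CD45), carried by leukocytes in general, had 0 counts in 4 libraries and 3 and 2 in shRRM2 replicates 2 and 3. The summed level of these markers was 1.82 to 2.18 CPM in shNC and 4.12 to 5.38 in shRRM2, of which CSF1R, chosen after its values were seen, made up 1.00 ± 0.179 and 4.08 ± 0.564 CPM (2.02 in log2, SE 0.258). The receptor genes PDCD1, TIGIT, CTLA4, CD28, BTLA and ICOS had 0 counts in every library. Of the 14 receptors, 4 were tested. PVRIG, the receptor of NECTIN2, rose by 0.44 (adjusted p = 0.00593), but its gene overlaps the end of STAG3, which had 146 to 252 counts per library. LAG3 fell, from 13, 19 and 16 counts to 7, 6 and 3, and entered the test through the group in which it was higher. Summed fibroblast markers were at 27.9 to 30.0 CPM in shNC and 61.8 to 66.5 in shRRM2, and summed endothelial markers at 2.90 to 3.20 and 6.44 to 7.85 CPM. Of the 9 fibroblast markers 3 were tested and all 3 rose: COL1A1 from 19.3 ± 1.01 to 32.0 ± 0.704 CPM and PDGFRB from 9.09 ± 0.364 to 28.5 ± 1.98 CPM, which carry most of the sum, and FAP, which passed the filter through its higher group. Of the 7 endothelial markers 3 were tested and all 3 rose: CDH5 by 1.44, ERG by 0.77 and VWF, which also passed through its higher group. Among the untested markers DCN and LUM had at most 4 and 10 counts in a library, and KDR had 0. The part of these markers in the rises of CD274, NECTIN2, CD276 and CD47 was not tested.

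Genes within 250 kb of a ligand were also compared. Of all tested genes 52.1% passed, 26.0% higher and 26.1% lower, so a neighbour past the threshold is common. Whether low-count neighbours such as INSL4, LOXL1 and LYRM9 passed the filter through their higher group was not checked. Around NECTIN2, 18 protein-coding genes lay in that window, 5 higher, 3 lower, 4 not past the threshold and 6 not tested. Between PVR and NECTIN2, BCL3, a nuclear partner of NF-kB, rose by 0.46 (SE 0.0567) and BCAM, an adhesion molecule, by 0.60 (SE 0.109). TOMM40, just beyond NECTIN2, was lower at −0.33 (SE 0.0371), and RELB rose by 0.43. Around CD274, of 6 genes INSL4 rose by 1.18 (adjusted p = 0.00701), from 0.688 to 1.55 CPM. PLGRKT and RIC1, on either side of the CD274 and PDCD1LG2 pair, were at −0.43 (adjusted p = 0.0588) and 0.01 (adjusted p = 0.951). Both tested neighbours of CD47, BBX and IFT57, were lower, at −0.29 and −0.38, while CD47 rose. Both tested neighbours of LGALS9, KSR1 and LYRM9, rose by 0.52 and 1.77. Of the 2 tested neighbours of CD276, LOXL1 rose by 1.33 and NPTN was at −0.10 (adjusted p = 0.0752). Of the 5 of VTCN1, PTGFRN rose by 0.43 and MAN1A2 was lower at −0.16.

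The tested genes whose profiles over the 6 libraries lay closest to each ligand, by Euclidean distance of mean-centred log2 CPM, were as follows. CD274 was closest to SQOR (distance 0.245) and CHAC1 (0.245). NECTIN2 was closest to BACH1 (0.0441) and OSMR (0.0453), CD276 to BMS1P1 (0.0141) and KIFBP (0.0367), and CD47 to GPR137 (0.0571) and TMEM141 (0.0607). PVR was closest to PCGF2 (0.0269) and ARRDC2 (0.0270), and LGALS9 to DISP3 (0.348) and ARIH2OS (0.428). The larger distances of CD274 and LGALS9 go with their lower counts.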

How the data were processed

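RNA of 6 PANC-1 libraries was selected with poly-T beads and sequenced, and the authors deposited whole-number read counts per NCBI Gene ID. The submitters' processing notes name fastp 0.23.4, featureCounts and hg38. For the aligner, annotation release, strand and multi-mapping settings the answer is: not given in the sources used here. Columns were matched to samples by gene name and number (the columns carry si where the labels have sh). Of 42902 Gene IDs, 40120 were matched to symbols in RefSeq (GRCh38.p14), and the unmatched held 1.25% of the counts.

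From the counts, genes were filtered with edgeR's filterByExpr and TMM-scaled, and tested with edgeR 4.0.16 in R 4.3.3 (robust quasi-likelihood fit, group alone, Benjamini-Hochberg over 15866 genes). SE is the absolute log2 fold change over the square root of F. The members and lists were chosen with earlier results of these data known. Named genes were all 8 ligands, up to 4 genes with the largest change among those passing and at 1 CPM or more in each of 7 related lists, and genes fixed by name (THBS1, QPCTL, CALR, JAK2, IRF1, CMTM6, NECTIN3, CD80 and 1 that is not reported here), with the 2 closest profiles per tested ligand and genes within 250 kb. Receptor and cell type marker genes, SOCS1, and which neighbours to print were picked after their values were seen. The likeness of profiles used log2 of CPM plus 0.05. The alternatives tried were scaling by RLE or by library size alone, testing without a filter, 1 CPM in 3 libraries, DESeq2 1.42.0, limma-voom (limma 3.58.1), a replicate block and leaving out each library. Pairs of libraries within a group differed more than sampling noise (chi-square per degree of freedom 2.21 to 3.87).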

Additional observations from a re-analysis of the deposited data

How the results depend on the processing

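CD276, CD47 and NECTIN2 stayed higher and past the threshold under all 13 alternatives. Their log2 fold changes were 0.18 to 0.24, 0.15 to 0.23 and 0.37 to 0.45, with adjusted p of at most 0.00109, 0.0291 and 1.23e-06. CD274 also stayed higher and past it (1.28 to 1.63, adjusted p of at most 0.0241). In the main fit and under 1 CPM in 3 libraries CD274 entered through the group in which it was higher. Its staying past the threshold is therefore no support. PVR changed sign with library size alone (0.023) and without shRRM2 replicate 3 (0.0068), and leaving out a library gave −0.025 to 0.0068. LGALS9 changed sign without shNC replicate 3 (−0.32) and without shRRM2 replicate 1 (−0.05), with a range of −0.32 to 0.44 when a library was left out, never past the threshold, and passed only with its copies summed (1.29). LGALS9 was not tested under the filter of 1 CPM. The log2 ratio of NECTIN2 to PVR stayed positive in the 7 settings run (0.37 to 0.47). DESeq2 gave 1 nectin higher, and leaving out a library gave 1 to 2 higher and 0 to 2 lower. Leaving out a library gave 0 to 1 CD47 partners lower, 7 to 11 PD-L1 transcription genes higher and 1 to 2 lower, and library size alone gave 1 lower. The causes were not tested.

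The labels give both groups the same replicate numbers. Deviations of same-numbered libraries correlated at −0.0068, −0.0034 and −0.021, and those of different-numbered ones at −0.016 to 0.021. No pairing by number was detected, which does not exclude a shared culture or batch. With the replicate block 4102 genes were higher and 4142 lower, against 4119 and 4143, and 4 ligands were higher and 0 lower. Depth limits CD274, LGALS9, PDCD1LG2 and VTCN1, which had 100, 82, 7 and 11 counts in all.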
